A study of Mus musculus with 4 samples.

Results

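The genes of sugar metabolism described here cover glucose entry and phosphorylation, glycolysis, gluconeogenesis, glycogen turnover, fructose and sorbitol use, the pentose phosphate pathway and the pyruvate dehydrogenase kinases. The list names 50 genes of known roles in these pathways, and it was drawn up with earlier results of these data known. A gene was measured where an array row was annotated to that gene alone, which held for 42 of the 50, out of 22180 genes in all. Of the other 8, Aldoa, Pgm1 and Tkt were named only in rows shared with other genes, and Gpi1, Pfkfb1, Eno1, Sord and G6pdx were not analysed here. The livers came from male wild-type C57BL/6J mice, an inbred strain, which were 6 weeks old when they were put for 20 weeks on the MCD diet, one that lacks methionine and choline, or on a normal diet. The MCD diet is a widely used mouse model of fatty liver with inflammation. Each diet has 2 samples, each on its own Mouse Gene 2.1 ST array, and the labels do not say whether a sample is 1 animal or a pool. The p-values therefore measure the spread between these samples.

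Liver takes up glucose after a meal, stores it as glycogen or breaks it down to pyruvate, and releases glucose during fasting. Many steps have isoenzymes: adult hepatocytes use liver forms (such as Pklr, Pfkl, Pygl, Gys2 and Fbp1), while fetal liver, muscle, brain and most other cells, including macrophages and bile duct cells, use other forms (such as Pkm, Pfkp, Pygb and Gys1). A balance between the forms thus depends on the cells present as well as on the state of the hepatocytes. In bulk tissue, fewer cells of a type and less RNA per cell cannot be told apart.

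Of the 42 measured genes, 8 rose and 4 fell in MCD diet livers at an adjusted p under 0.05 in limma. The genes that rose were Pfkp, Pygb, Pgm2, Pgd, Pck2, Pkm, G6pc3 and Ldhb, and those that fell were Pygl, Fbp1, Pdk2 and Gckr. The called share, for a list not chosen independently of these data, was 28.6% of the measured genes, against 9.98% of all genes (6.37% called higher and 3.62% called lower). Calls depend on signal, and 39 of the 42 had a mean signal above the genome-wide median, where 18.1% of genes were called (11.5% higher and 6.61% lower). Among the 24 that lie in the brightest 25% of genes, 2 rose and 4 fell, where 8.44% of such genes were called higher and 9.59% lower (18.0% in all). The median log2 difference (MCD diet minus normal diet) was 0.04 over the 42 genes and -0.03 over all genes, so the set did not move one way. Signals of MCD diet and normal diet arrays lay apart without overlap in 29 of the 42 (69.0%), against 54.2% of all genes. The calls of Pfkp, Pygb, Pgm2, Pgd, Pygl and Fbp1 held without each array in turn and under the other alternatives run, whereas those of the other 6 called genes were lost without 1 or more of the arrays.

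**Figure D1:**
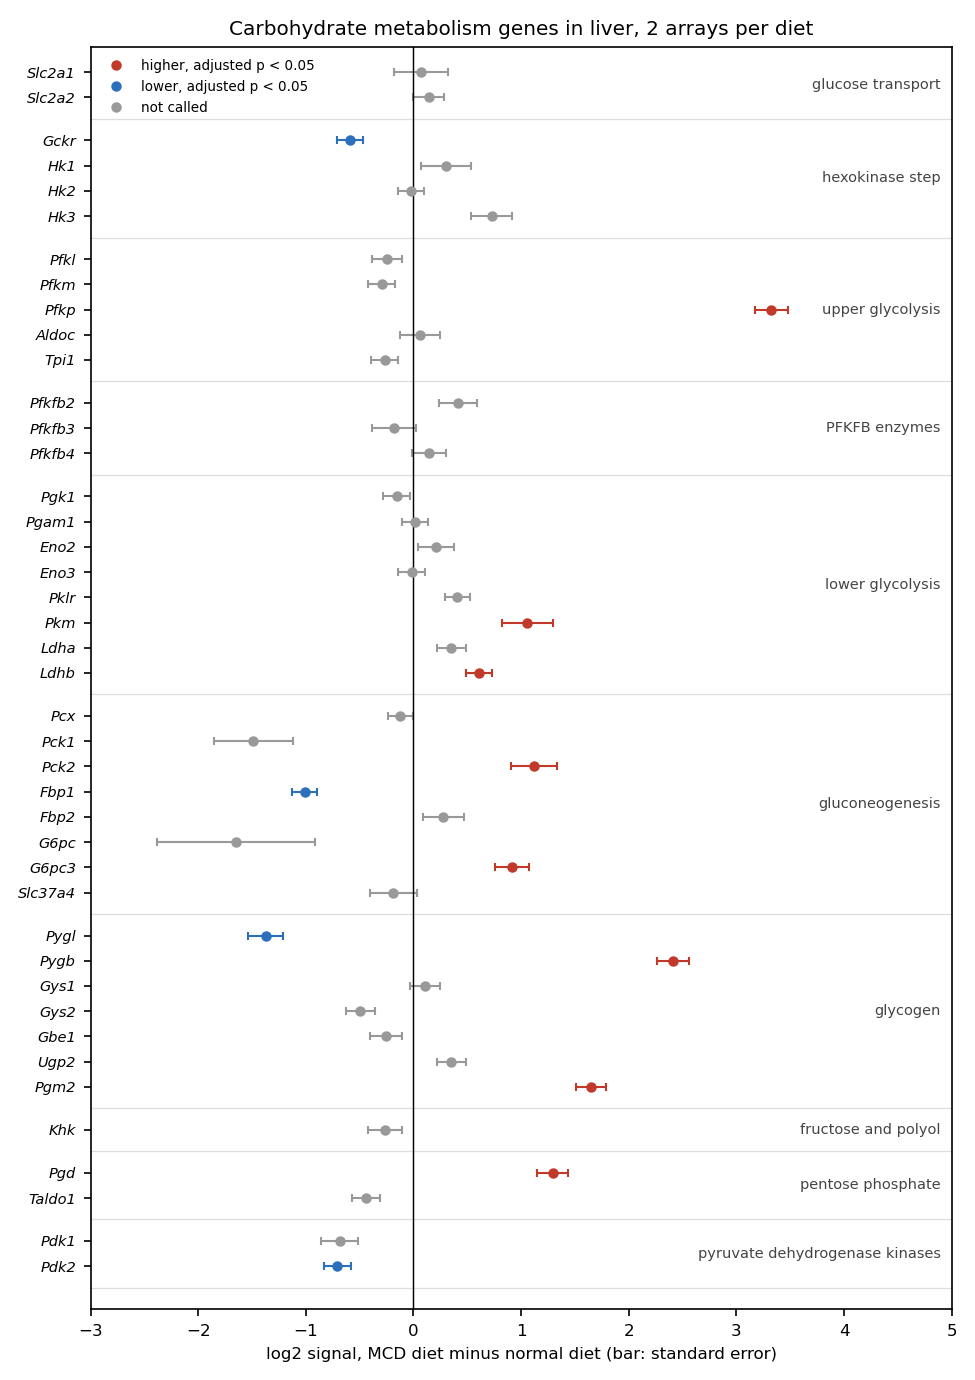
Log2 difference (MCD diet minus normal diet, x axis) of the 42 measured genes, grouped by role down the page, with bars of 1 standard error and 2 arrays per diet. The 8 called increases reach 3.33 for Pfkp, the 4 called decreases reach -1.37 for Pygl, and the wide bars of Pck1 and G6pc stand out among the genes not called.

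The samples carried the RNA of liver. Alb, which encodes albumin, had log2 signals of 11.99 and 11.93 in MCD diet livers, against 12.04 and 11.96 in normal diet livers. Of 8 hepatocyte markers 2 were lower and 0 higher, with a median difference of -0.17. Serpina1e fell by 3.78 (SE 0.13, limma adjusted p = 0.000206). Apoa1 fell by 0.50 (SE 0.12, limma adjusted p = 0.0493). That call was lost without any 1 of the 4 arrays, under quantile normalization, with the replicate number as a block and without the dimmest 25% of genes. Markers of other cells differed between the diets as well: 8 of 9 measured markers of lipid-associated macrophages were higher and 0 lower. The summed linear signal of those 9 was 3257 and 2326 in MCD diet livers, against 242 and 230 in normal diet livers, led by Gpnmb (7.33), Mmp12 (5.59) and Lpl (4.01) in log2 difference. Gpnmb and Mmp12 were dim in normal diet livers, which leaves the size of their differences uncertain, and the mean of the rows of Lpl gave 2.35. All 5 measured cholangiocyte markers were higher, with summed signals of 256 and 220 in MCD diet livers against 54.5 and 43.9 in normal diet livers, and 3 or 4 of the 5 stayed called without each array. Of 7 stellate cell and myofibroblast markers 3 were higher (sums of 409 and 488 in MCD diet livers, against 287 and 230 in normal diet livers). That count was 1 without MCD diet replicate 2 or normal diet replicate 2 and 2 without normal diet replicate 1, and Acta2 and Col1a1 lost their calls in all of these. Of 6 Kupffer cell markers 0 were higher and 3 lower, and of 5 endothelial markers 0 were higher and 2 lower. The Kupffer cell markers that were not called had overlapping arrays and differences of either sign, from -0.49 to 0.64. Without MCD diet replicate 2 a call in the higher direction appeared in the Kupffer cell list. The endothelial count was 0 without MCD diet replicate 1 or normal diet replicate 1 and 1 without either of the other arrays, and the Kupffer marker Timd4 lost its call without any 1 array except MCD diet replicate 2. Of the 6 neutrophil, the 4 measured T and B cell and the 4 measured pancreas markers 0 were called. However, Retnlg, S100a8 and S100a9 of the neutrophil list were called higher without MCD diet replicate 2. In the T and B cell list Cd3e was called higher without MCD diet replicate 1, and Cd79a lower under median centring. The 6 skeletal muscle markers, which bear on the muscle isoenzymes, had 0 calls (1 lower under quantile normalization or median centring) and sums of 31.2 and 33.3 in MCD diet livers against 35.6 and 41.2 in normal diet livers. Most of the non-liver isoenzymes below are also used by macrophages or bile duct cells, and the part of those cells in the differences was not tested.

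Glucose transporters did not pass the test. Slc2a2, the main transporter of hepatocytes, had log2 signals of 10.30 and 10.51 in MCD diet livers, against 10.37 and 10.16 in normal diet livers, a difference of 0.14 ± 0.15 (± gives its standard error here and below, n = 2 arrays per diet). Slc2a1, the transporter of most other cells, had 6.30 and 5.58 in MCD diet livers, against 5.74 and 6.00 in normal diet livers. The groups overlap for both genes, and the array of Slc2a1 that is highest and the one that is lowest are both from MCD diet livers.

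At the entry of glucose into metabolism, Gckr fell. It encodes the glucokinase regulatory protein, which holds glucokinase inactive in the hepatocyte nucleus, while glucokinase itself was not analysed here. Gckr had log2 signals of 7.97 and 7.92 in MCD diet livers, against 8.57 and 8.49 in normal diet livers. The groups do not overlap, and the difference was -0.59 ± 0.12 (1.5-fold lower, limma adjusted p = 0.0331). That call was lost without any 1 of the 4 arrays, at differences of -0.63 to -0.55. Hk3, a hexokinase of myeloid cells, had 4.12 and 3.72 in MCD diet livers, against 3.02 and 3.37 in normal diet livers. All MCD diet values are the higher ones, but the difference of 0.73 ± 0.19 did not pass (limma adjusted p = 0.0700). Hk1 and Hk2, the hexokinases of most tissues and of muscle and fat, differed by 0.30 ± 0.23 and -0.02 ± 0.12, and their arrays overlap.

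In upper glycolysis a phosphofructokinase gene rose more than any of the other measured members. Phosphofructokinase commits fructose 6-phosphate to glycolysis. Its platelet form Pfkp had log2 signals of 6.47 and 6.22 in MCD diet livers, against 3.13 and 2.90 in normal diet livers. Normal diet signals were thus near the median of all genes, and the groups lie far apart. The rise was 3.33 ± 0.15 (10.0-fold, limma adjusted p = 0.000349), and since the lower signal is dim and no background value was analysed here, its size is uncertain. The liver form Pfkl had 5.35 and 5.08 in MCD diet livers, against 5.40 and 5.51 in normal diet livers. The muscle form Pfkm, which is dim, had 2.62 and 2.80 in MCD diet livers, against 3.0 and 3.01 in normal diet livers. Neither passed (Pfkl -0.25 ± 0.14, Pfkm -0.30 ± 0.13). The brain aldolase Aldoc and the triose phosphate isomerase Tpi1 differed by 0.06 ± 0.19 and -0.27 ± 0.12, without a call. The PFKFB enzymes make and remove fructose 2,6-bisphosphate, which switches phosphofructokinase on and fructose bisphosphatase off. Pfkfb2, Pfkfb3 and Pfkfb4, the forms measured, gave differences of 0.42 ± 0.18, -0.18 ± 0.21 and 0.14 ± 0.16, and 0 were called.

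In lower glycolysis 2 of 8 measured genes rose and 0 fell. Pkm encodes the pyruvate kinase of fetal liver, muscle and most other cells, and its row does not separate the splice forms. It had log2 signals of 7.21 and 6.51 in MCD diet livers, against 5.77 and 5.83 in normal diet livers. Both MCD diet values lie above the normal diet ones, but they are farther from each other than the normal diet arrays are. The rise was 1.06 ± 0.23 (2.08-fold, limma adjusted p = 0.0425). The call was lost when MCD diet replicate 1 was left out (0.71), when either normal diet array was left out (1.03 and 1.09) and under median centring (0.99). Pklr, the liver pyruvate kinase and a target of carbohydrate-responsive transcription, had 9.19 and 9.24 in MCD diet livers, against 8.79 and 8.83 in normal diet livers. Its arrays do not overlap either, and it stood higher by 0.41 ± 0.12 without passing (limma adjusted p = 0.0895). The heart lactate dehydrogenase Ldhb had 3.32 and 3.47 in MCD diet livers, against 2.79 and 2.77 in normal diet livers. This rise from a dim signal was 0.61 ± 0.12 (1.53-fold, limma adjusted p = 0.0325). It lay between 0.54 and 0.68 without each array, where the call was lost. Ldha, the form of liver and muscle, differed by 0.35 ± 0.13 (limma adjusted p = 0.178). The shared enzymes differed little: Pgk1 by -0.16 ± 0.12, Pgam1 by 0.02 ± 0.12, and the neuronal and muscle enolases Eno2 and Eno3 by 0.21 ± 0.17 and -0.02 ± 0.12. A dimmer row of Pgam1 differed by 0.30, without a call, and this gene has close copies in the genome that its probes may also read. Gapdh, outside the member list, differed by 0.01 ± 0.12.

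Of the 8 gluconeogenic genes, 2 rose and 1 fell. Fbp1, the liver fructose 1,6-bisphosphatase that reverses the phosphofructokinase step, had log2 signals of 9.43 and 9.43 in MCD diet livers, against 10.41 and 10.47 in normal diet livers. Replicates of a diet lay close together and the groups lie apart, and Fbp1 fell by 1.01 (SE 0.12, 2.01-fold lower, limma adjusted p = 0.00540). The muscle form Fbp2, dim on all arrays, had 3.45 and 3.41 in MCD diet livers, against 2.89 and 3.42 in normal diet livers, which overlap. Phosphoenolpyruvate carboxykinase makes phosphoenolpyruvate from oxaloacetate. Its mitochondrial form Pck2, known as a target of the amino acid stress factor ATF4, had 4.33 and 3.92 in MCD diet livers, against 2.78 and 3.24 in normal diet livers. It rose by 1.12 ± 0.21 (2.17-fold, limma adjusted p = 0.0274), a call lost when MCD diet replicate 1 (0.91) or normal diet replicate 1 (0.89) was left out. The cytosolic form Pck1, the fasting-induced form of hepatocytes, had 10.05 and 8.85 in MCD diet livers, against 10.87 and 11.01 in normal diet livers. The groups do not overlap, but the MCD diet arrays lie far from each other, and the difference of -1.49 ± 0.37 did not pass (limma adjusted p = 0.0586). It passed without MCD diet replicate 1 (-2.09) and without MCD diet replicate 2 (-0.89), so its size rests on which MCD diet array is used.

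Glucose 6-phosphatase, the last step of glucose release, showed the widest replicate gap of the measured members. G6pc, the liver form, had log2 signals of 9.78 and 7.34 in MCD diet livers, against 10.53 and 9.89 in normal diet livers. MCD diet replicate 2 lies far below the other 3 arrays, and the difference of -1.65 ± 0.73 did not pass (limma adjusted p = 0.241). It was -2.87 without MCD diet replicate 1, where it passed, and -0.43 without MCD diet replicate 2. The ubiquitous form G6pc3, known for its role in neutrophils, had 5.33 and 4.97 in MCD diet livers, against 4.28 and 4.18 in normal diet livers. It rose by 0.92 ± 0.16 (1.89-fold, limma adjusted p = 0.0205). The call was lost without MCD diet replicate 1 (0.73), normal diet replicate 1 (0.97) or normal diet replicate 2 (0.87). Slc37a4, which carries glucose 6-phosphate into the endoplasmic reticulum, and Pcx, the pyruvate carboxylase that opens the pathway, differed by -0.19 ± 0.22 and -0.12 ± 0.12.

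Of the 7 measured genes listed under glycogen turnover 2 rose and 1 fell. Glycogen phosphorylase releases glucose 1-phosphate from glycogen, and its liver form Pygl had log2 signals of 7.04 and 7.38 in MCD diet livers, against 8.48 and 8.69 in normal diet livers. Pygl fell by 1.37 (SE 0.16, 2.59-fold lower, limma adjusted p = 0.00574). The brain form Pygb, which is also a form of fetal tissue, had 6.00 and 5.75 in MCD diet livers, against 3.57 and 3.35 in normal diet livers. Pygb rose by 2.41 ± 0.15 (5.32-fold, limma adjusted p = 0.000849), from a low signal. The groups do not overlap for either gene. The liver glycogen synthase Gys2 had 8.96 and 9.21 in MCD diet livers, against 9.59 and 9.57 in normal diet livers, without overlap, and its difference of -0.50 ± 0.14 did not pass (limma adjusted p = 0.0788). It passed under median centring (-0.56). The muscle form Gys1 differed by 0.11 ± 0.14. Pgm2 is a phosphoglucomutase family gene for which RefSeq lists Pgm1 as another name, so its place among the glycogen genes is uncertain. Its signals were 5.96 and 5.95 in MCD diet livers, against 4.18 and 4.43 in normal diet livers. Pgm2 rose by 1.65 ± 0.14 (3.14-fold, limma adjusted p = 0.00195). Ugp2, which makes UDP-glucose, and the branching enzyme Gbe1 differed by 0.35 ± 0.13 and -0.26 ± 0.15, without a call.

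**Figure D2:**
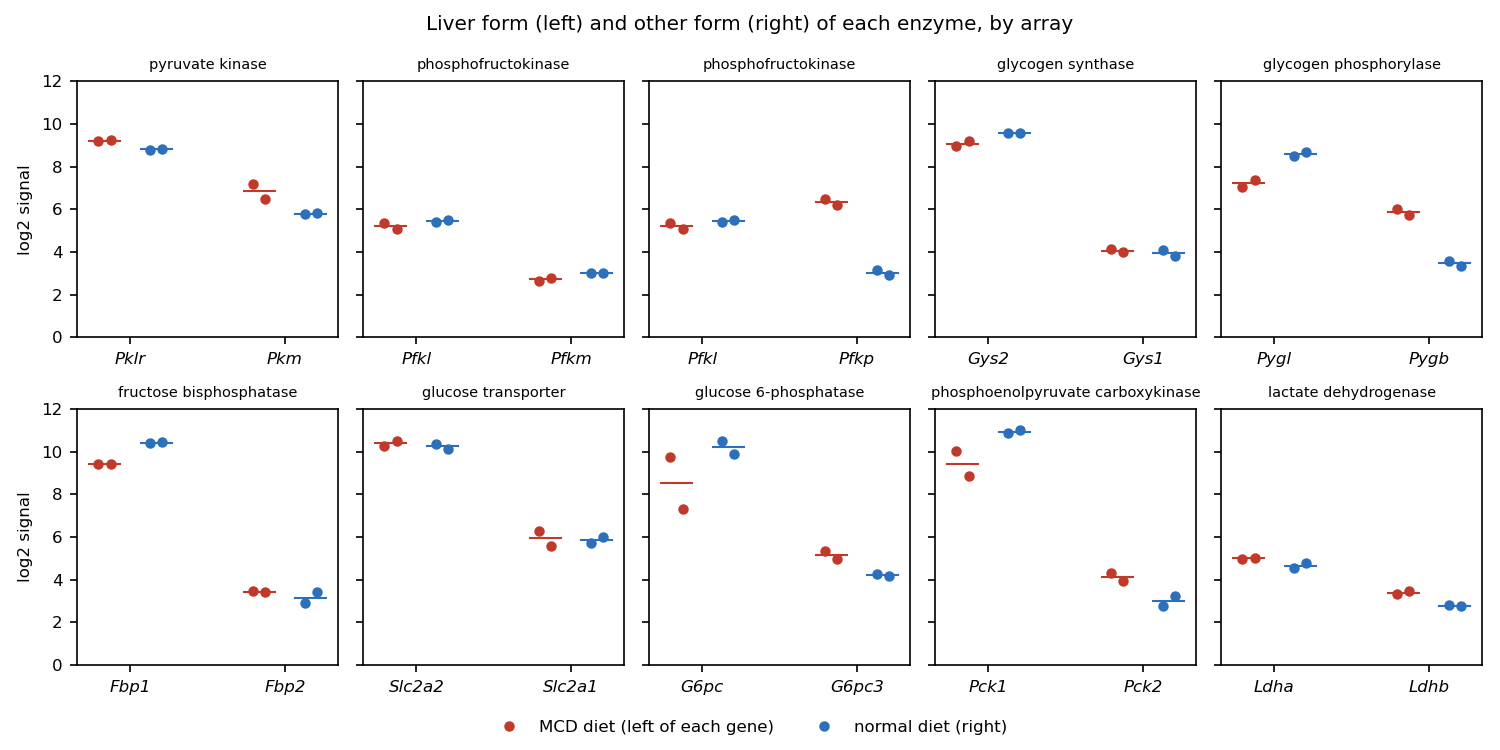
Log2 signals (y axis) of the liver form and another form of each enzyme on every array, MCD diet left of normal diet for each gene, with points for arrays and lines for means of 2. Signals of different genes come from different probes, so only the change of a gene between diets can be read. Pygl falls while Pygb rises, Pfkp rises while Pfkl lies nearly level, and the 2 MCD diet arrays of G6pc lie far apart.

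The promoters of 4 of the genes that moved most firmly are shown because they pair a rising with a falling gene at the same or the opposite step: Pygb with Pygl for glycogen phosphorylase, and Pfkp with Fbp1 for the opposite reactions between fructose 6-phosphate and fructose 1,6-bisphosphate. The sequences are the 250 bases before the annotated start, on the gene's strand, from RefSeq with build GRCm38.p6, and capitals mark CG dinucleotides. Pygb lies at chr2:150786546-150786795 (plus strand), Pfkp at chr13:6648772-6649021 (minus), Pygl at chr12:70227684-70227933 (minus) and Fbp1 at chr13:62888283-62888532 (minus).
Pygb: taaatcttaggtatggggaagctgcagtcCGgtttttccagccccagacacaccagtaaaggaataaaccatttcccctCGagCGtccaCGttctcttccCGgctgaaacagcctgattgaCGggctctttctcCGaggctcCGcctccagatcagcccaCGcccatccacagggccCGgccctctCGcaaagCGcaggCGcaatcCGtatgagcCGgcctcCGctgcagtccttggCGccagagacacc
Pfkp: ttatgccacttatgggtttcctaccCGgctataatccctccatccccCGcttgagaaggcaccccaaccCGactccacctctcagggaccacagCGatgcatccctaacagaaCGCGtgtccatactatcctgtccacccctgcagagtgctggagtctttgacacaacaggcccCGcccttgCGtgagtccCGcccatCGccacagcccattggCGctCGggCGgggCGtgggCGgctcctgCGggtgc
Pygl: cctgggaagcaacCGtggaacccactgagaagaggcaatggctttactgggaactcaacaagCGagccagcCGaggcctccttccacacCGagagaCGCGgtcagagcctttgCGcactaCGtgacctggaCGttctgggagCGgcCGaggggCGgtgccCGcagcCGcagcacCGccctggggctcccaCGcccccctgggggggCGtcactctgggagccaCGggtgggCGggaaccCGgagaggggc
Fbp1: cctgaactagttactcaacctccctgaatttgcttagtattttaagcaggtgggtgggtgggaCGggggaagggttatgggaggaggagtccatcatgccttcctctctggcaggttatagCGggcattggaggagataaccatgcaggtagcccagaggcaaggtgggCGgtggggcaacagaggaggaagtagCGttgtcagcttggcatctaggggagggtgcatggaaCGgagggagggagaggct
Pygb, Pfkp and Pygl hold 17, 16 and 20 CG dinucleotides in this window and Fbp1 holds 5, against a median of 6 (quartiles 2 and 16) over 32851 RefSeq promoter windows of the same length. The counts overlapped between the directions: the 10 windows of the 8 genes that rose held 6 to 21 and the 5 windows of the 4 that fell held 5 to 20. Searched on both strands, the E-box CACGTG stood in windows of G6pc3 and Pdk2, and in 6.02% of all promoter windows. The hypoxia core ACGTG, which is also part of that E-box, stood in windows of G6pc3, Pgm2, Pkm, Pygb, Pdk2 and Pygl (16.6% of all windows), thus among genes of either direction. The antioxidant core TGACNNNGC stood in those of Pgm2 and Fbp1 (10.2% of all windows). The AP-1 site TGACTCA (4.46%), the ATF4 composite element TGATGCAA (0.791%) and the HNF4 core CAAAGTCC (1.2%) had no match in windows of the 12 called genes. A gene with several windows was named if any of them matched, whereas the shares are per window, so the named genes and the shares are unlike measures. A match is a run of letters and says nothing about binding in these livers.

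Whether the liver form and the other form moved unequally was measured within each array, as the log2 signal of the liver form minus that of the other, compared between diets. Of 18 pairs listed, 10 had both genes measured. The balance shifted away from the liver form in 8 of them without overlap between the diets, and in 2 the arrays overlapped. For single genes, 54.2% already lie apart without overlap, and the share over pairs of other genes was not tested. With 2 arrays per diet an exact permutation test cannot give a two-sided p below 0.333, which the 8 pairs reached (0.417 after Benjamini-Hochberg adjustment over the 10 pairs), so this test cannot pass a threshold of 0.05 for any of the pairs. For Pygl minus Pygb the within-array value was 1.04 and 1.64 in MCD diet livers, against 4.91 and 5.34 in normal diet livers, a shift of -3.78 with a pooled SD of 0.37. For Pfkl minus Pfkp it was -1.13 and -1.14 in MCD diet livers, against 2.27 and 2.61 in normal diet livers (shift -3.57, SD 0.17). These shifts are many times the spread between arrays of a diet.

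The carboxykinase and phosphatase pairs shifted as well, with wider spread. Pck1 minus Pck2 was 5.72 and 4.93 in MCD diet livers, against 8.10 and 7.76 in normal diet livers (shift -2.61, SD 0.43). G6pc minus G6pc3 was 4.45 and 2.37 in MCD diet livers, against 6.24 and 5.71 in normal diet livers (shift -2.57, SD 1.07). The last value moved between -3.61 and -1.53 without each array. Fbp1 minus Fbp2 shifted by -1.29 (SD 0.23), where the fall of Fbp1 carries most of the change. Smaller shifts were -0.65 for Pklr minus Pkm (SD 0.38), -0.60 for Gys2 minus Gys1 (SD 0.21) and -0.26 for Ldha minus Ldhb (SD 0.13). The lactate dehydrogenase shift was -0.14 without normal diet replicate 2 and -0.38 without normal diet replicate 1. The pyruvate kinase pair differs from the glycogen phosphorylase pair in that its liver form was not lower in MCD diet livers. That shift was -0.28 without MCD diet replicate 1 and -1.03 without MCD diet replicate 2. Pfkl minus Pfkm shifted by 0.05 (SD 0.23) and Slc2a2 minus Slc2a1 by 0.07 (SD 0.52), each within the spread of the arrays.

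**Figure D3:**
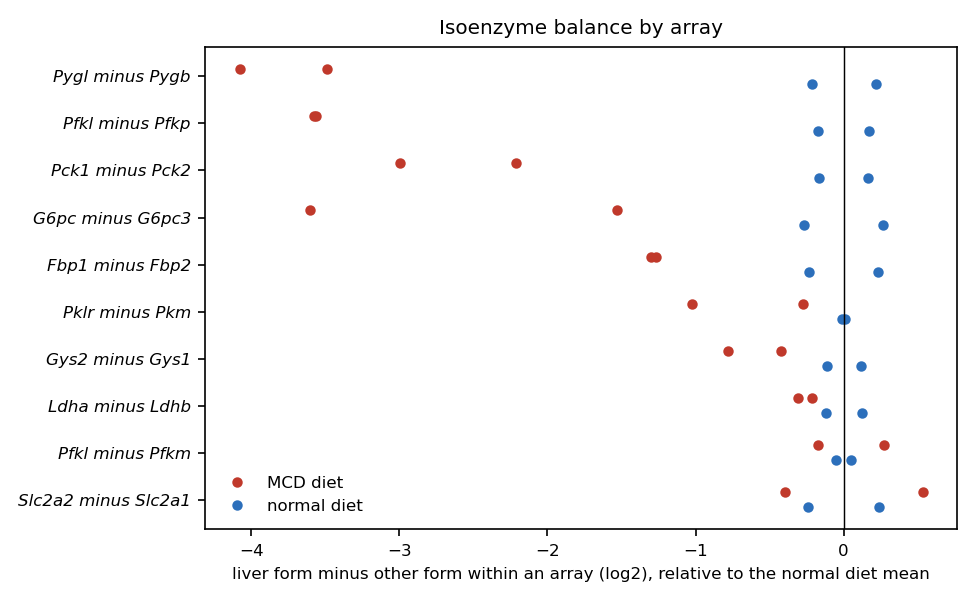
Liver form minus other form within each array (log2, x axis), set relative to the normal diet mean of the pair, for the 10 measured pairs down the page, with 2 arrays per diet as points. The MCD diet arrays lie left of the normal diet arrays in 8 pairs, most for Pygl minus Pygb and Pfkl minus Pfkp, and straddle them in the other pairs.

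In the pentose phosphate pathway, which makes NADPH and ribose phosphate, Pgd rose. It encodes 6-phosphogluconate dehydrogenase, the second NADPH-making enzyme of the pathway. Pgd had log2 signals of 7.67 and 7.40 in MCD diet livers, against 6.25 and 6.24 in normal diet livers, a rise of 1.29 ± 0.14 (2.45-fold, limma adjusted p = 0.00440). Taldo1, the transaldolase of the branch that returns carbon to glycolysis, had 5.92 and 5.74 in MCD diet livers, against 6.31 and 6.22 in normal diet livers. Its groups do not overlap, in the opposite direction, but the difference of -0.44 ± 0.13 did not pass (limma adjusted p = 0.0986). Khk, the ketohexokinase of fructose use, differed by -0.26 ± 0.15.

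Pyruvate dehydrogenase kinases shut the entry of pyruvate into the citric acid cycle. Pdk2, the form most abundant in many tissues, had log2 signals of 6.87 and 7.0 in MCD diet livers, against 7.69 and 7.59 in normal diet livers. It fell by 0.71 (SE 0.12, 1.63-fold lower, limma adjusted p = 0.0214). The call was lost without any 1 of the 4 arrays, at differences of -0.77 to -0.64. Pdk1 had 5.72 and 6.10 in MCD diet livers, against 6.71 and 6.49 in normal diet livers. Its difference of -0.68 ± 0.17 did not pass (limma adjusted p = 0.0615). A much dimmer row of Pdk1 differed by 0.03, and the mean of its rows gave -0.33. Pdk4, a fasting-induced kinase outside the member list, went the opposite way to Pdk2. It had 6.88 and 6.54 in MCD diet livers, against 3.92 and 3.46 in normal diet livers. Its rise was 3.02 ± 0.20 (limma adjusted p = 0.00102).

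Of the 8 members called higher, 7 had a higher signal on MCD diet replicate 1 than on MCD diet replicate 2, the exception being Ldhb. The same order held for 64.6% of all genes called higher. It also held for the summed signals of the lipid-associated macrophage, hepatocyte, Kupffer cell, neutrophil, cholangiocyte and pancreas markers. The stellate cell, endothelial, T and B cell and muscle sums had the reverse order, and a link to the members was not tested. Leaving out MCD diet replicate 1, MCD diet replicate 2, normal diet replicate 1 or normal diet replicate 2 left 4, 7, 4 or 5 members called higher. The same steps gave 4, 3, 2 or 2 called lower, with Pck1 and G6pc among the 4 called without MCD diet replicate 1 and Pck1 among the 3 called without MCD diet replicate 2.

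**Figure D4:**
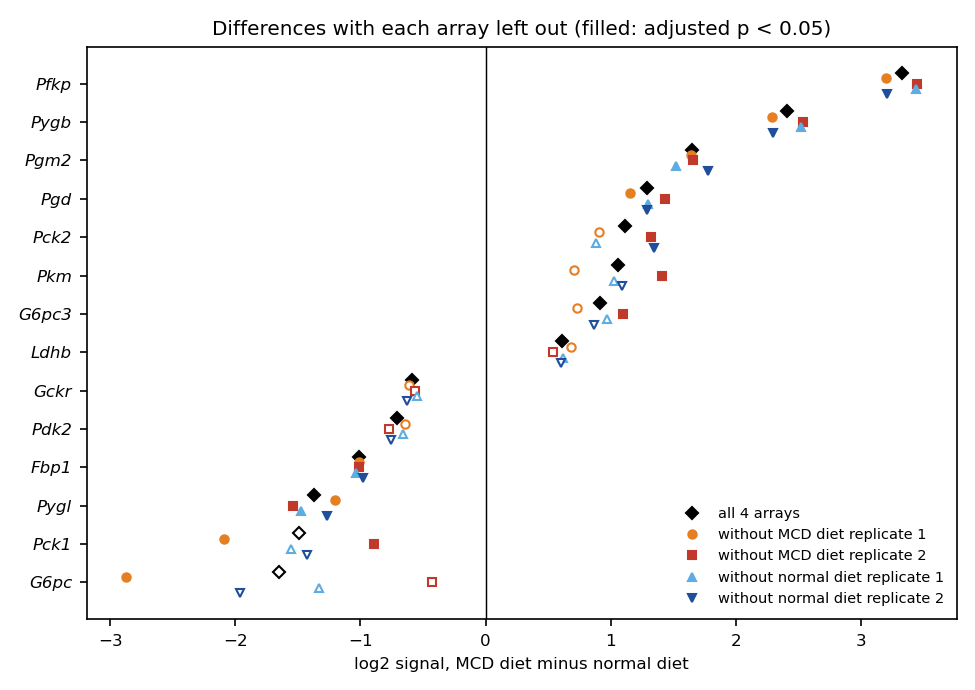
Log2 difference (MCD diet minus normal diet, x axis) of the 12 called genes and of Pck1 and G6pc, with all 4 arrays and with each array left out; filled symbols have a limma adjusted p under 0.05. Symbols stay filled for Pfkp, Pygb, Pgm2, Pgd, Fbp1 and Pygl, and those of G6pc spread from -2.87 to -0.43.

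Other genes of the same pathways gave 9 higher and 11 lower of 89 measured, with a median difference of -0.12. Of the 89, 77 lay above the genome-wide median signal, where 11.5% of genes were called higher and 6.61% lower. The share of the 89 called higher was near that background and the share called lower was above it, a difference that was not tested. Counts of the separate lists below are small and were not tested against these shares either. Of the 14 measured genes listed with glycogen 2 rose and 3 fell. Gyg, the primer protein on which glycogen is built, had log2 signals of 6.06 and 5.52 in MCD diet livers, against 4.09 and 4.20 in normal diet livers, and rose by 1.65 ± 0.19. Pgm3, of the amino sugar pathway, rose by 1.42 ± 0.14. The glycogen-targeting phosphatase subunits Ppp1r3b and Ppp1r3c fell by 1.29 (SE 0.27) and 0.63 (SE 0.14), and Epm2a, the laforin gene, fell by 0.98 (SE 0.19) from a dim signal. The calls of these 3 were lost without 2 or more of the arrays, at -0.97 for Ppp1r3b without normal diet replicate 2.

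Of 13 other carbohydrate enzymes 1 rose and 2 fell. Ldhd, which oxidises D-lactate, had 6.19 and 5.95 in MCD diet livers, against 7.76 and 8.02 in normal diet livers, and fell by 1.82 (SE 0.15, limma adjusted p = 0.00215). Galm, the galactose mutarotase, fell by 0.69 (SE 0.13). Minpp1, an inositol phosphate phosphatase, rose by 0.58 ± 0.12, and its dimmer row differed by -0.05. Of 8 other pentose phosphate genes 0 rose and 1 fell, the sedoheptulose kinase Shpk, by 0.84 (SE 0.13). Of 12 sugar and lactate transporters 2 rose and 0 fell. They were the lactate carrier Slc16a1 (1.0 ± 0.16) and Slc37a2 (1.61 ± 0.29), a sugar phosphate carrier known from macrophages. Of 20 pyruvate and shuttle genes 3 rose and 2 fell: beside Pdk4, the malate dehydrogenase Mdh2 (0.70 ± 0.13) and the glycerol phosphate dehydrogenase Gpd2 (0.80 ± 0.14) rose, while the aspartate aminotransferase Got1 fell by 0.80 (SE 0.13) and the phosphatase Pdp2 by 0.70 (SE 0.13). Apart from Gyg, Pgm3, Ldhd and Pdk4, the calls named in these paragraphs were lost without at least 1 array.

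Of 22 regulators 1 rose and 3 fell. All 22 lay above the genome-wide median signal, where 11.5% of genes were called higher and 6.61% lower. Myc, a transcription factor that drives glycolytic genes in growing cells, had log2 signals of 5.76 and 5.82 in MCD diet livers, against 4.35 and 4.62 in normal diet livers, a rise of 1.30 ± 0.14 (limma adjusted p = 0.00422). Onecut1, a hepatocyte factor, fell by 1.78 (SE 0.20). Srebf1, the insulin-responsive lipogenic factor, fell by 1.46 (SE 0.29) and Klf15, which supports gluconeogenesis, fell by 1.36 (SE 0.27). Mlxipl, which encodes the glucose sensor ChREBP, differed by -0.42 ± 0.15 (limma adjusted p = 0.140). The calls of Myc and Onecut1 held without each array in turn, those of Srebf1 and Klf15 did not.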

How the data were processed

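Each array gives 1 deposited value per transcript row. The submitters' processing notes name Transcriptome Analysis Console without a version; the background correction and normalization are not given in those notes. Deposited values, from the authors' processing, were taken to be log2 signals because of their range (maximum 12.1), since no base is stated; all fold changes depend on this. Array medians were 2.57 and 2.63 (MCD diet) and 2.63 and 2.65 (normal diet). The number of arrays limits the precision.

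Of 34472 rows, 23521 named exactly 1 gene in the platform annotation, 1814 several and 9137 none. For the 1082 genes with several rows, the row with the highest mean over the 4 arrays was used. The resulting 22180 genes were fitted together with limma 3.58.1 in R 4.3.3 (lmFit and eBayes, two-sided, no block, no filter), with Benjamini-Hochberg adjustment over all of them at a threshold of 0.05. Calls, differences and medians of the members were read from that fit. Isoenzyme pairs were compared by within-array differences with an exact permutation test. The fit was tested on simulated data. The members and gene lists were chosen with earlier results of these data known. All members could be named, as could up to 6 called genes of each pathway list and 3 genes of each marker list. Alternatives were each array left out, a replicate block, quantile normalization, median centring, filters that dropped the dimmest 25% or 50%, a trended prior variance, a test of all rows, the mean of a gene's rows, and an unadjusted p under 0.05 with 2-fold change. Of the listed pathway genes 11 and all 5 red cell markers were not analysed here.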

Additional observations from a re-analysis of the deposited data

How the results depend on the processing

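The called differences of the named genes kept their direction under the alternatives run, and the smallest difference called over all genes was 0.50. Without each array in turn, the count of all genes called, 2214, lay between 1050 and 1493, that of members called higher, 8, between 4 and 7, and that of members called lower, 4, between 2 and 4. An unadjusted p under 0.05 with 2-fold change gave 1155 genes, with 6 members higher and 3 lower. Under quantile normalization the shift of Gys2 minus Gys1 was -0.24 and that of Fbp1 minus Fbp2 was -0.97, and Pklr passed at 0.51. Without each array the shift of Pklr minus Pkm lay between -1.03 and -0.28, that of Fbp1 minus Fbp2 between -1.52 and -1.05. Among the members, leaving out the dimmest genes or adding a trend gained Pck1, Pdk1 or Gys2 and lost 0 calls, and median centring lost Pkm and gained Gys2 and Pdk1. Of other genes, Ppp1r3c lost its call under the trend and Minpp1 under median centring. The cause was not tested. With the replicate number as a block, 1950 genes were called, 6 members higher and 3 lower, and Gckr, Ldhb and Pck2 lost their calls. The labels do not say what same-numbered arrays share beyond the number. Their deviations from the diet means correlated at 0.0537 across genes, and whether they share a batch was not tested. Dim signals limit the sizes given for the members Pfkp, Pygb, Ldhb and Pck2, as no background value was analysed. The same holds for the rises of Pdk4 and Slc37a2, outside the member list.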
